A study of Mus musculus with 1279 samples.

Results

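Cluster 2 and cluster 5 are fibroblast clusters of the mouse heart, and their cells were compared within strain and within plate. The members were the cells that the sample labels assign to cluster 2 or to cluster 5 in C57BL6 and in PdgfrbGFP mice, 462 of the 1279 cells of the series. PdgfrbGFP gave 49 of the cluster 2 cells and the remaining ones of that cluster came from C57BL6. Each deposited sample was 1 cell, sorted into a well and sequenced with Smart-seq2, a full-length cDNA method without molecular identifiers. The study asked how fibroblasts differ within and between organs and how they can be told from mural cells, and its text treats clusters 2 to 5 as the main cardiac fibroblast population.

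All mice were adult males of 10 to 20 weeks. C57BL6 is the wild type background, and its cells had been sorted by staining for PDGFRα or PDGFRβ after exclusion of endothelial cells, and which receptor was used for these plates is not given in the sources used here. PdgfrbGFP mice carry a transgene in which Pdgfrb regulatory sequences drive a green fluorescent protein, so that their cells were chosen for activity of that promoter and not for the receptor itself. The C57BL6 cells came from plate heart_203s (65 cells of cluster 2 and 87 of cluster 5), plate heart_316s (58 and 97) and, for 1 further cluster 2 cell, another plate, and the PdgfrbGFP cells came from plate heart_320s. For PdgfrbGFP, strain, sort and plate cannot be told apart. The labels name no animal, so cells were not used as replicates, and the p-values below set differences against the spread between 2 strains. With 1 residual degree of freedom the tests borrow that spread across genes, so no p-value rests on a gene's own spread alone.

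Cardiac fibroblasts build the extracellular matrix that holds muscle cells and vessels in place. They secrete fibrillar collagens for tensile strength, and basement membrane proteins such as collagen IV, laminins and perlecan, which form thin sheets around muscle cells and capillaries. Immediate early genes are transcription factors and feedback regulators that cells switch on within minutes of a stimulus without new protein synthesis, and they are also known to respond to enzymatic tissue dissociation.

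The authors made the clusters from these same counts, so genes that separate clusters 2 and 5 were partly used to define them and no p-value here is an independent test that 2 populations exist. The 8 fibroblast markers, among them Pdgfra, Col1a1, Dcn and Tcf21, were above 1 CPM (the usual scaling of counts to an equal total, here of the summed cells of a cluster on a plate) in both clusters on 3 of 3 plates. Their summed level was 22971 to 27262 CPM in cluster 2 and 24983 to 28741 CPM in cluster 5. Endothelial markers summed to 4.11 to 12.1 CPM and 8.22 to 26.2 CPM, with Cldn5 at 0 in both clusters on each plate. Immune markers summed to 13.7 to 115.3 CPM and 24.5 to 109.3 CPM. The authors had removed cells with endothelial or immune signatures and cells with neither Pdgfra nor Pdgfrb. Low endothelial and immune levels and the presence of a PDGF receptor were thus partly set in advance. Pericyte markers stood at 170.1, 3.82 and 218.7 CPM in cluster 2 on plates heart_203s, heart_316s and heart_320s and at 73.3, 78.9 and 144.04 CPM in cluster 5. They were thus higher in cluster 2 on plates heart_203s and heart_320s and lower on plate heart_316s. Cardiomyocyte markers stood at 142.4, 172.9 and 31.1 CPM in cluster 2 on these plates and at 63.3, 61.4 and 29.1 CPM in cluster 5, and the part of either list in the results was not tested.

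Cluster 2 cells were sequenced somewhat more deeply. The median gene count per cell was 354343 in cluster 2 and 320278 in cluster 5 on plate heart_203s, 219148 and 155530 on plate heart_316s, and 282142 and 258408 on plate heart_320s. The median number of genes detected was 4521 and 4208, 3568.5 and 2747, and 3703 and 3462. Gene counts per spike-in count, a measure of RNA content relative to added RNA, had medians of 59.7 and 56.8, 48.4 and 36.3, and 48.7 and 44.9. All 3 measures were thus higher in cluster 2 on 3 of 3 plates, and the mitochondrial share was lower, with medians of 1.46% and 1.51%, 1.73% and 2.37%, and 1.58% and 1.74%. An exact two-sided sign-flip permutation test over the 3 plates gave p = 0.25 for each of these measures, the smallest value it can give. Each cluster 2 cell was also paired with the cluster 5 cell of closest gene count on its plate. This was chosen after the data were seen, and it gave 65, 58 and 49 pairs with medians of 354343 and 354609, 219148 and 217616, and 282142 and 285267 gene counts. These pairs, called matched on depth below, were matched on gene counts only. In them the median number of genes detected was still higher in cluster 2, at 4521 and 4357, 3568.5 and 3191, and 3703 and 3651, and the median mitochondrial shares were 1.46% and 1.43%, 1.73% and 2.08%, and 1.58% and 1.61%.

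Of the cells in clusters 2 and 5, cluster 2 held 42.8% on plate heart_203s (Wilson 95% interval 35.2 to 50.7), 37.4% on plate heart_316s (30.2 to 45.3) and 31.8% on plate heart_320s (24.98 to 39.5). In the other 2 strains the share was larger, and few cells there were of cluster 5. Acta2GFP mice, which carry a reporter under Acta2 sequences, had 38 cells of cluster 2 and 2 of cluster 5, a share of 95% (83.5 to 98.6), and Cspg4dsRED mice, with a reporter under Cspg4 sequences, had 8 and 1, a share of 88.9% (56.5 to 98.01). Of all cells in clusters 1 to 5, cluster 2 held 22.3% (17.9 to 27.4), 23.1% (18.3 to 28.7) and 20.8% (16.1 to 26.4) on the 3 plates, 31.7% (24.02 to 40.4) in Acta2GFP and 30.8% (16.5 to 49.99) in Cspg4dsRED, with overlapping intervals. Cluster 5 held 29.8%, 38.6% and 44.5% on the 3 plates and 1.67% and 3.85% in these strains. The intervals cover counting error only, and strain, sort and plate cannot be told apart in these shares. For Acta2GFP the digestion differed as well, since the methods add elastase for these mice. With 2 cells and 1 cell of cluster 5, these strains entered alternative fits only, and without their cluster 5 cells.

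Across all genes, the edgeR quasi-likelihood test on counts summed per strain and cluster, with strain as a block, called 0 of 15153 genes (0%) at an adjusted p under 0.05. The smallest adjusted p was 0.503, and 736 genes (4.86%) had an unadjusted p under 0.05. DESeq2 on the same sums called 299 of 13096 genes with an adjusted p (2.28%), 0.932% higher in cluster 2 and 1.35% lower. These shares are the background for the DESeq2 calls of each list below. In cells matched on depth, which are fewer, DESeq2 called 1053 genes and edgeR called 0. A further edgeR fit was chosen after the data were seen and kept the genes detected in at least 30% of cells. It called 2.98% of 4263 genes, 45 higher (1.06%) and 82 lower (1.92%). This share was 1.60% with plates as replicates, 0.446% with cells matched on depth, 2.75% without plate heart_316s and 0.211% without plate heart_203s. The edgeR fit of these genes called 0 without the strain block and 0 with cells thinned to 50000 counts, while 442 had an unadjusted p under 0.05 with thinned cells. No gene named below passed the edgeR test over all genes, and "higher" and "lower" therefore describe CPM values and their direction on the plates.

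The plates were also compared by direction. On 3 of 3 plates 2037 genes were higher in cluster 2 (13.4% of those tested) and 2212 were lower (14.6%). Both shares are the background for each list count on 3 of 3 plates below. A distance of 2-fold or more on each plate, with 1 CPM added, was reached by 0.924% of the genes as higher in cluster 2 and by 1.53% as lower. In cells matched on depth the order of these shares was the reverse, 1.33% higher and 1.12% lower. Many of these were rarely detected, and only 10 and 18 of them were seen in at least 30% of the higher cluster's cells on each plate. The leading genes, 12 per direction, were those with the largest smallest fold among genes so detected, and since their direction was part of that choice it is not a result. DESeq2 called 5 of the 12 higher and 12 of the 12 lower ones.

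**Figure D1:**
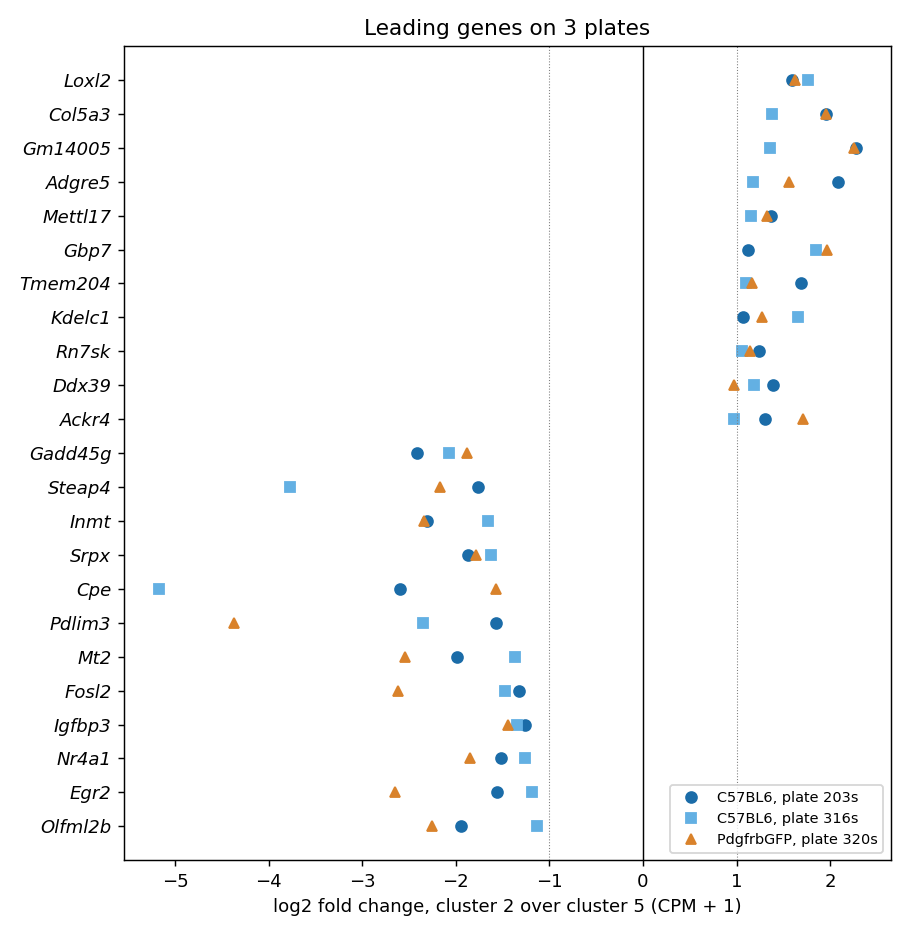
Within-plate log2 fold change of cluster 2 over cluster 5 (x axis, 1 CPM added) for the leading genes of each direction, with 1 point per plate and dotted lines at 2-fold. The points of a gene lie close together for Loxl2 and Srpx and far apart for Cpe, Pdlim3 and Steap4.

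Among the leading genes higher in cluster 2 were matrix and membrane genes. Col5a3, which encodes a chain of collagen V that joins collagen I fibrils (chromosome 9, 20770050 to 20815067, GRCm38, minus strand), stood at 467, 424 and 335 CPM in cluster 2 on plates heart_203s, heart_316s and heart_320s and at 119.6, 162.6 and 85.7 CPM in cluster 5. Every cluster 2 value was above every cluster 5 value, as in 4.94% of all genes tested, while the reverse order held in 5.26%. These shares also apply to each gene below whose plate values did not overlap. The difference of Col5a3 was 1.81 ± 0.19 (log2, SE), 2.60- to 3.89-fold by plate, with an adjusted p of 0.503 in edgeR and 2.34e-09 in DESeq2. Tmem204, a membrane protein gene on chromosome 17, had 604, 628 and 659 CPM in cluster 2 against 187.3, 293 and 293 CPM, a log2 difference of 1.27 ± 0.14. Adgre5, the adhesion receptor CD97, had 215.4, 230.6 and 299 CPM against 50.2, 101.3 and 100.6 CPM. Adgre5 partly overlaps Ddx39 on the other strand, which was also among the leading genes, and without strand reads in the overlap cannot be told apart. Tmem204 and Ackr4 likewise overlap Ift140 and Acad11 on the other strand.

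Loxl2, a lysyl oxidase that crosslinks collagens and is known to act on collagen IV, stood at 41.2, 68.8 and 60.9 CPM in cluster 2 and at 12.96, 19.6 and 19.1 CPM in cluster 5. It had a count in 53.8%, 46.6% and 53.1% of cluster 2 cells and in 28.7%, 25.8% and 18.1% of cluster 5 cells. After thinning each cell to 50000 counts these shares were 41.5%, 41.4% and 40.8% against 16.1%, 16.5% and 12.4%. Gbp7, an interferon-inducible GTPase gene, had 96.3, 104.8 and 109.9 CPM against 43.8, 28.3 and 27.3 CPM, and Ackr4, a scavenging receptor for chemokines, 64.7, 90.4 and 109.4 CPM against 25.7, 45.5 and 32.7 CPM. Gm14005, Mettl17, Kdelc1 and Rn7sk were also among the leading genes of this direction.

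Basement membrane genes went in both directions. Of 21 tested, 7 were higher in cluster 2 on 3 of 3 plates and 5 lower, beside 13.4% and 14.6% of all genes. The median log2 difference by plate was 0.32, 0.07 and -0.01, and in the fit over strains it was 0.17 beside -0.05 over all genes. DESeq2 called 4 higher and 0 lower. These 4 were Col4a1, Col4a2, Hspg2 and Lama2. Col4a1, a chain of the collagen IV network, stood at 1031, 698 and 750 CPM in cluster 2 and at 523, 397 and 341 CPM in cluster 5, with no overlap and a log2 difference of 1.03 ± 0.13 (adjusted p 0.661 in edgeR and 4e-07 in DESeq2). Col4a2, the partner chain, had 564, 744 and 375 CPM against 254.5, 290.9 and 211.2 CPM. Both genes lie on chromosome 8 and overlap on opposite strands, so reads in the overlap may be shared.

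Hspg2, which encodes the heparan sulfate proteoglycan perlecan, gave 740, 744 and 716 CPM in cluster 2 and 434, 348 and 310 CPM in cluster 5. Its values were nearly constant within cluster 2 and differed by 1.03 ± 0.14 on the log2 scale. Lama2, the laminin chain of muscle basement membranes, had 852, 1105 and 703 CPM against 572, 721 and 413 CPM, so that plate by plate it was 1.49- to 1.70-fold higher. Lamb1 was 1.26- to 1.45-fold higher, while Nid1, the nidogen that links laminin to collagen IV, had 1035, 1287 and 807 CPM against 1032, 1119 and 928 CPM and no common direction.

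The 3 collagen VI chains, which form beaded filaments next to basement membranes, pointed the same way. Col6a1 had 1360, 1208 and 1424 CPM in cluster 2 and 1022, 676 and 813 CPM in cluster 5, and Col6a2 had 1494, 1084 and 1543 CPM against 880, 756 and 720 CPM. Col6a3 had 826, 603 and 441 CPM against 370, 310 and 263.3 CPM. None of the 3 overlapped between the clusters, and 4.94% of all genes tested had every cluster 2 value above every cluster 5 value. Col8a1, a short-chain collagen of vessel walls, stood at 290.9, 409 and 387 CPM against 118.6, 87.5 and 204.2 CPM. Of the 10 collagen VI, VIII and fibril-associated collagen genes tested, 5 were higher in cluster 2 on 3 of 3 plates and 0 lower. Over all genes these shares were 13.4% and 14.6%. DESeq2 called 4 higher, namely Col6a1, Col6a2, Col6a3 and Col8a1, beside 0.932% of all genes. The list had a median log2 difference of 0.58.

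The main fibrillar collagens were about level. Col1a1 had 1976, 2839 and 2516 CPM in cluster 2 and 1972, 2480 and 2195 CPM in cluster 5, and the edgeR log2 difference was 0.12 ± 0.08. That of Col3a1 was 0.11 ± 0.08. In the deposited counts the highest value of 1 gene in 1 cell was 4579 and none exceeded 2 times the exon length in bases, and the part of such a limit in the levels and folds of abundant or short genes was not tested. Of 7 fibrillar collagens tested, 2 were higher in cluster 2 on 3 of 3 plates and 0 lower, and DESeq2 called only Col5a3. Of the 24 collagen processing enzymes tested, 8 were higher on 3 of 3 plates, Loxl2 among them, and 2 lower. DESeq2 called 1 higher, which was not Loxl2 (adjusted p 0.143 in DESeq2). Those higher on 3 of 3 plates numbered 7 in cells matched on depth and 13 in thinned cells.

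Small leucine-rich proteoglycans, which bind collagen fibrils, split evenly, with 4 of 13 higher in cluster 2 on 3 of 3 plates and 4 lower. The higher ones included Bgn (biglycan), at 4023, 4458 and 5001 CPM against 3143, 3526 and 4142 CPM, Aspn (asporin), at 528, 407 and 686 CPM against 217.1, 253.7 and 367 CPM, and Prelp, at 1859, 1495 and 1850 CPM against 996, 1029 and 1322 CPM. DESeq2 called these 3 higher and 0 lower. Dcn (decorin) was 1.10- to 1.16-fold lower in cluster 2 and Ogn (osteoglycin) 1.11- to 1.37-fold lower. The family thus pointed in both directions.

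Elastic fibre genes were also split, 6 of 19 higher in cluster 2 on 3 of 3 plates and 6 lower. Fbln1, a fibulin of elastic fibres and basement membranes, had 1432, 1851 and 1821 CPM in cluster 2 and 2708, 3241 and 2967 CPM in cluster 5, without overlap and with a log2 difference of -0.81 ± 0.09. Efemp1, another fibulin, had 206.3, 101.2 and 169.2 CPM against 488, 390 and 362 CPM, and Mfap2, a microfibril protein, was 1.66- to 2.14-fold lower in cluster 2. Fbln2 and Ltbp4, which binds latent TGF-beta, were 1.14- to 1.55-fold and 1.22- to 1.44-fold higher in cluster 2. DESeq2 called these 3 lower and these 2 higher.

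**Figure D2:**
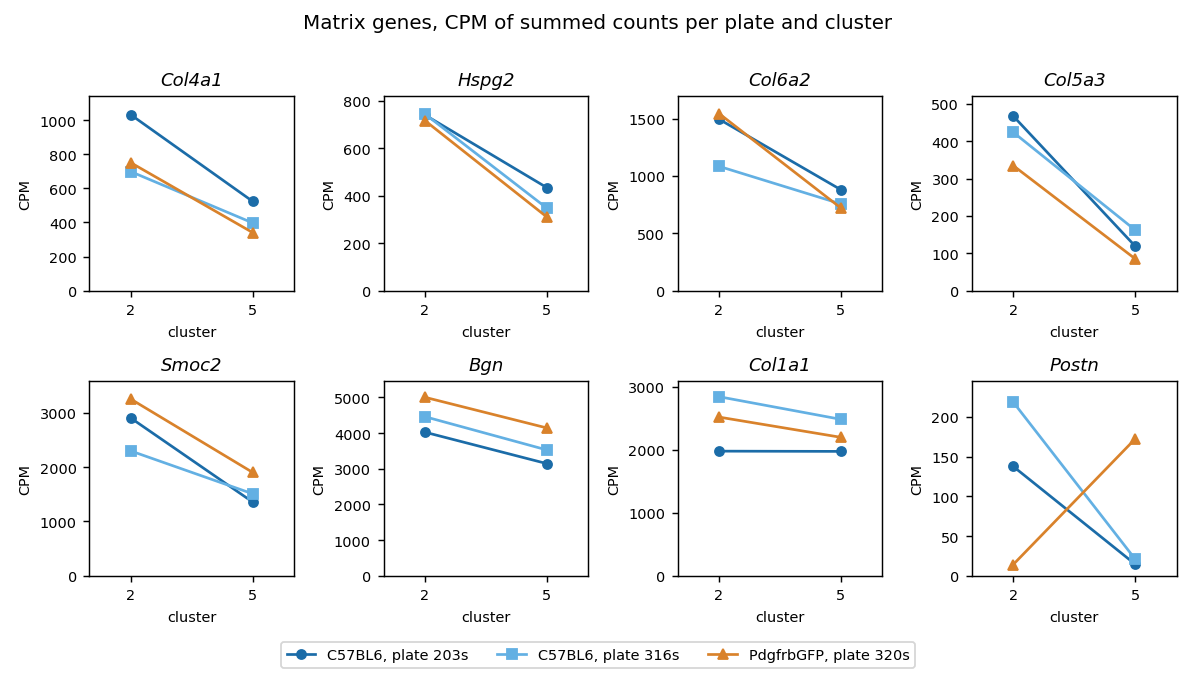
CPM of summed counts (y axis from 0) in cluster 2 and cluster 5 for 8 matrix genes, with 1 line per plate. The lines of Col4a1, Hspg2, Col6a2, Col5a3, Smoc2 and Bgn fall from cluster 2 to cluster 5 on 3 of 3 plates, Col1a1 is about level on plate heart_203s (1976 and 1972 CPM), and Postn runs in opposite directions in the strains.

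Activation genes of fibroblasts gave a mixed picture. Of 17 tested, 8 were higher in cluster 2 on 3 of 3 plates and 3 lower, beside 13.4% and 14.6% of all genes. The median log2 difference was 0.57. Cilp, a matrix protein known from injured hearts, had 100.6, 388 and 451 CPM against 46.8, 90.2 and 268.04 CPM. Fap, the protease fibroblast activation protein, had 92.9, 98.7 and 141.6 CPM against 46.95, 18.1 and 46.7 CPM, with no overlap. DESeq2 called Cilp, Fap and Col8a1 higher and 0 lower. Postn (periostin), the usual marker of activated fibroblasts, had 137.7 and 218.7 CPM in cluster 2 on plates heart_203s and heart_316s against 14.7 and 21.2 CPM, but 14.2 CPM against 172.3 CPM on plate heart_320s. Of the cluster 5 cells, 41.4%, 34% and 48.6% lay above the median cluster 2 cell for Postn.

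The difference of the cluster effect between PdgfrbGFP and C57BL6 was tested by an interaction on sums per plate. For Postn it was -6.86 ± 0.59 on the log2 scale with an adjusted p of 0.651. The edgeR test called 0 of 13639 genes (0%), with 1017 at an unadjusted p under 0.05. With DESeq2 size factors it called 0 and 1064 had an unadjusted p under 0.05. One plate represented PdgfrbGFP in this test.

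Genes of interstitial fibroblasts went both ways. Smoc2, a matricellular protein, had 2901, 2296 and 3250 CPM in cluster 2 and 1357, 1509 and 1902 CPM in cluster 5, a log2 difference of 0.82 ± 0.07 (adjusted p 0.503 in edgeR and 1.44e-15 in DESeq2). On these plates 4.6%, 24.7% and 18.1% of cluster 5 cells exceeded the median cluster 2 cell, which made it one of the genes with less overlap between cells. Sparcl1 and Hsd11b1, which regenerates active glucocorticoid, were higher in cluster 2 by 1.17- to 1.56-fold and 1.23- to 1.71-fold, and Crispld2 had 1912, 1879 and 1618 CPM against 1270, 1448 and 1083 CPM. Inmt, a methyltransferase of indoleamines (chromosome 6, 55170626 to 55175043, GRCm38, minus strand), had 216.3, 333 and 127.5 CPM in cluster 2 against 1078, 1050 and 648 CPM in cluster 5, a log2 difference of -2.17 ± 0.15. Penk, the precursor of enkephalin peptides, was 1.36- to 2.92-fold lower in cluster 2. Of 16 genes of the list, 6 were higher in cluster 2 on 3 of 3 plates and 7 lower, and DESeq2 called 5 and 3.

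Immediate early genes leaned to cluster 5. Of 26 tested, 0 were higher in cluster 2 on 3 of 3 plates and 19 were lower, beside 13.4% and 14.6% of all genes, and DESeq2 called 0 higher and 10 lower. The median log2 difference was -0.53. Nr4a1, an orphan nuclear receptor (chromosome 15, 101254269 to 101274795, GRCm38, plus strand), had 918, 439 and 303 CPM in cluster 2 and 2635, 1051 and 1089 CPM in cluster 5. Its groups did not overlap, and the log2 difference was -1.66 ± 0.13 (adjusted p 0.503 in edgeR and 1.22e-26 in DESeq2). Above the median cluster 2 cell lay 86.2%, 60.8% and 63.8% of cluster 5 cells, so the cells overlapped widely on plates heart_316s and heart_320s.

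Egr2, a zinc finger factor, stood at 114.3, 73.6 and 12.1 CPM in cluster 2 and at 338, 168.9 and 81.02 CPM in cluster 5. Fosl2, a Fos family member, had 68.5, 20.5 and 11.7 CPM against 172.4, 58.8 and 76.9 CPM. Within each plate the cluster 5 value was the higher one, although plate heart_203s lay above the others in both clusters. Atf3, a stress-induced factor, had 418, 445 and 358 CPM against 942, 508 and 886 CPM, and Zfp36, which destabilizes cytokine mRNAs, had 1631, 1012 and 1196 CPM against 2713, 1320 and 2374 CPM.

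Among the most abundant members, Fos had 3486, 2513 and 2693 CPM in cluster 2 and 4698, 3132 and 4248 CPM in cluster 5, 1.25- to 1.58-fold. Egr1 had 4042, 2196 and 2927 CPM against 5561, 3156 and 4631 CPM, 1.38- to 1.58-fold. Junb and Dusp1, a phosphatase that shuts off MAP kinases, were lower in cluster 2 by 1.19- to 1.29-fold and 1.06- to 1.49-fold.

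Gadd45g, a stress-response gene (chromosome 13, 51846678 to 51848468, GRCm38, plus strand), had the largest smallest fold among the leading genes lower in cluster 2, although some rarely detected genes exceeded it. It stood at 167.5, 135.5 and 182.7 CPM in cluster 2 and at 898, 571 and 673 CPM in cluster 5, 3.67- to 5.33-fold, with a log2 difference of -2.11 ± 0.17. A count was present in 96.9%, 77.6% and 85.7% of cluster 2 cells and in 96.6%, 82.5% and 92.4% of cluster 5 cells. After thinning the shares were 61.5%, 43.1% and 40.8% against 85.1%, 62.9% and 73.3%. Most cells of both clusters thus had the transcript, at different amounts.

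**Figure D3:**
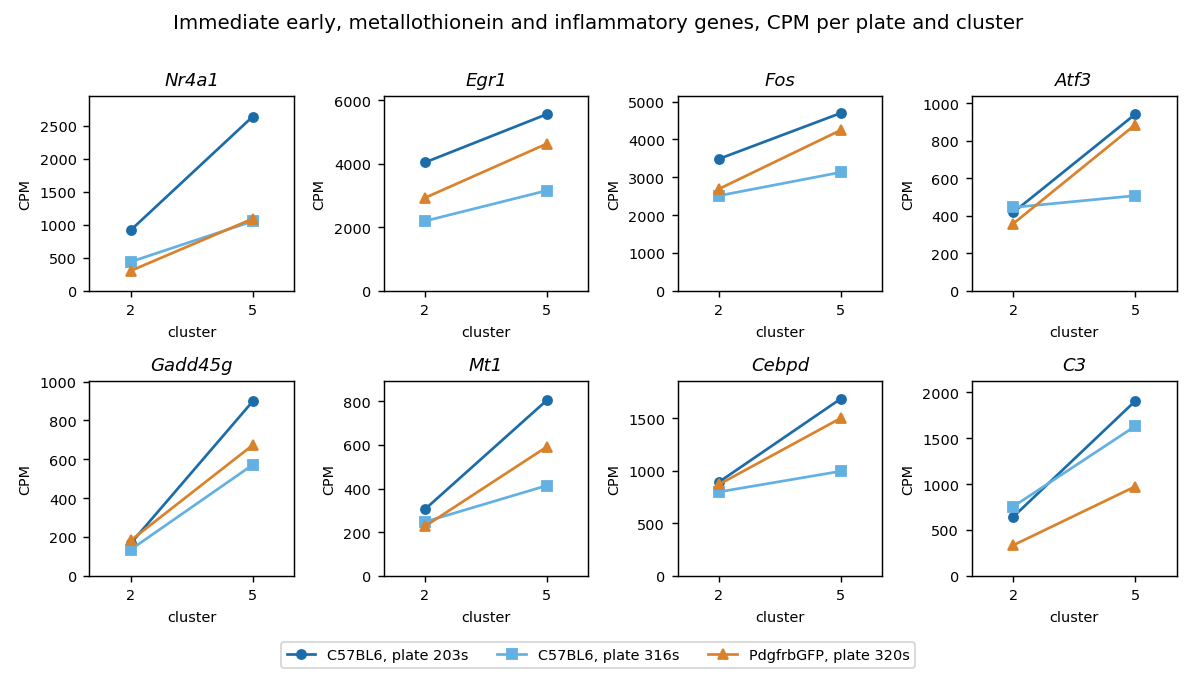
CPM of summed counts (y axis from 0) in cluster 2 and cluster 5 for 8 stimulus-responsive and inflammatory genes, with 1 line per plate. Each line rises from cluster 2 to cluster 5, steeply for Gadd45g (3.67- to 5.33-fold) and less so for Fos (1.25- to 1.58-fold).

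Promoter windows are shown for 4 genes that were higher in cluster 5 and 1 that was higher in cluster 2, to show elements through which stimulus-responsive genes are often read. The 4 were chosen because their windows hold such an element, which most windows of the immediate early genes lack. Each is the 250 bases before the transcription start from RefSeq (GRCm38.p6), 5′ to 3′ on the strand of the gene. Capitals mark a TATA box (TATAAA), a cyclic AMP response element (TGACGTCA) or an AP-1 element (TGANTCA), searched on both strands. Gadd45g is chr13:51846425-51846674 (plus), with a TATA box 27 bases before the start. Fos is chr12:85473640-85473889 (plus), with a TATA box at 33 bases. Dusp1 is chr17:26508473-26508722 (minus), with a cyclic AMP response element further upstream. Mt2 is chr8:94172368-94172617 (plus), with an AP-1 element at 79 bases. Col5a3 is chr9:20815068-20815317 (minus) and held none of the 3 motifs.
Gadd45g: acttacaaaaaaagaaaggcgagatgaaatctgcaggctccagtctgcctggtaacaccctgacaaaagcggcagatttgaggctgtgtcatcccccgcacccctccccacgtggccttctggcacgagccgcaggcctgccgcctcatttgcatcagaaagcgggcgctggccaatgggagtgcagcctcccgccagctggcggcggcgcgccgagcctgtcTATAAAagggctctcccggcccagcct
Fos: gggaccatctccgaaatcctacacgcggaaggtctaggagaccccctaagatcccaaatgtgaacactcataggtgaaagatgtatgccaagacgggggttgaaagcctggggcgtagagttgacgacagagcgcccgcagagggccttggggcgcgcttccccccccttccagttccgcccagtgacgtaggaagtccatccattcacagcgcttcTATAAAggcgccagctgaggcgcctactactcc
Dusp1: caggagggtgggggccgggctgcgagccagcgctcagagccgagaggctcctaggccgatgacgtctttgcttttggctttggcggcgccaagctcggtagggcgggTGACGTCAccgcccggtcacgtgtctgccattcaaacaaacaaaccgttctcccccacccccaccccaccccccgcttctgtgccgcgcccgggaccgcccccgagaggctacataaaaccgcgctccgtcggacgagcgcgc
Mt2: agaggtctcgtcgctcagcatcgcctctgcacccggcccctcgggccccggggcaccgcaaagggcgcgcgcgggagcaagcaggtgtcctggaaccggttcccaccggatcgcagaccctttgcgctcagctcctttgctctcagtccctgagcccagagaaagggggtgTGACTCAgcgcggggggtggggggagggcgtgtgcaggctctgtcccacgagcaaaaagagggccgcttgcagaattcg
Col5a3: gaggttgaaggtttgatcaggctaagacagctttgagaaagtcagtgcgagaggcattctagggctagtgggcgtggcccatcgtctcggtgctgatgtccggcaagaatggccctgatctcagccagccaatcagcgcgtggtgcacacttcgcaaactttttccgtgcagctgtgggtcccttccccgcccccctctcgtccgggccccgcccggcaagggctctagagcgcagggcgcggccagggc

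Among promoter windows of genes 2-fold or more lower in cluster 2 on 3 of 3 plates, 4.55% held the AP-1 motif, 3.03% the cyclic AMP response element and 6.06% the TATA box. For the genes that were higher, 93 of which had a window in the RefSeq table, the shares were 6.35%, 1.59% and 5.56%. Among all 32851 windows they were 6.75%, 1.55% and 12.4%, and among the 12874 windows of genes tested 4.40%, 2.45% and 6.59%. Of the 28 windows of immediate early genes, 0 held the AP-1 motif, 3 the cyclic AMP response element and 3 the TATA box. A match is a description of letters in a window and not a binding site.

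NF-kappaB targets and inhibitors were lower in cluster 2 on 3 of 3 plates in 10 of 19 genes and higher in 0. Over all genes the shares were 14.6% lower and 13.4% higher. Socs3, which damps cytokine signalling, had 666, 284.9 and 489 CPM in cluster 2 and 1441, 506 and 969 CPM in cluster 5, a log2 difference of -1.02 ± 0.11. Cebpd, a transcription factor of the acute phase, had 894, 799 and 871 CPM against 1686, 996 and 1501 CPM, with no overlap. Ptgs2, the inducible cyclooxygenase, had 17.5, 30.03 and 17.9 CPM against 250.3, 93.98 and 114.9 CPM. Nfkbiz was 1.70- to 2.75-fold lower. DESeq2 called 5 of the list lower and 0 higher. In cells matched on depth 11 of the 19 were lower on 3 of 3 plates and 3 higher, and in thinned cells 9 and 3.

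Chemokines and cytokines were lower in cluster 2 on 3 of 3 plates in 9 of 20 genes and higher in 1. Over all genes the shares were 14.6% lower and 13.4% higher. Il6 stood at 30.3, 55.2 and 46.3 CPM in cluster 2 and at 249.2, 78.98 and 201.1 CPM in cluster 5. It was detected in 44.6%, 20.7% and 34.7% of cluster 2 cells and in 47.1%, 21.6% and 43.8% of cluster 5 cells. The share of cells with a count was therefore close in the clusters on plates heart_203s and heart_316s, while the sums lay apart by 1.42- to 7.98-fold. Ccl11 (eotaxin) had 148.2, 60.4 and 126.2 CPM against 413, 230.7 and 202.7 CPM, and Cxcl1, which attracts neutrophils, 794, 433 and 561 CPM against 973, 619 and 1177 CPM. DESeq2 called Il6, Ccl11 and Cxcl1 lower and 0 higher. Cxcl12 was 1.26- to 4.31-fold lower in cluster 2 and was not called by DESeq2 (adjusted p 0.166).

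Metal handling genes had 9 of 15 members lower in cluster 2 on 3 of 3 plates and 1 higher, beside 14.6% and 13.4% of all genes. The median log2 difference of the list was -0.46. The metallothioneins Mt1 and Mt2, small proteins that bind zinc and copper, had 305, 247.4 and 226.9 CPM against 804, 414 and 591 CPM, and 63.04, 37.7 and 34.4 CPM against 253.1, 99.1 and 205.6 CPM. In thinned cells Mt2 was present in 36.9%, 15.5% and 22.4% of cluster 2 cells and in 69%, 42.3% and 50.5% of cluster 5 cells. Steap4, a metalloreductase, had 61.2, 12.9 and 60.5 CPM against 210.4, 187.6 and 275.1 CPM. Hmox1, the haem oxygenase, was 1.81- to 4.61-fold lower and Trf (transferrin) 1.41- to 2.56-fold lower. DESeq2 called these 5 lower and 0 higher.

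Of the complement genes 7 of 20 were lower in cluster 2 on 3 of 3 plates and 0 higher. Over all genes the shares were 14.6% and 13.4%. C3, the central component (chromosome 17, 57203970 to 57228136, GRCm38, minus strand), had 643, 754 and 333 CPM in cluster 2 and 1902, 1629 and 972.5 CPM in cluster 5, and every cluster 5 value was above every cluster 2 value. The log2 difference was -1.47 ± 0.11 (adjusted p 0.503 in edgeR and 5.97e-23 in DESeq2). C7 had 56.5, 191.5 and 88.5 CPM against 268.9, 383 and 153.4 CPM. The regulator Serping1 was lower by 1.14- to 1.22-fold. DESeq2 called C3 and C7. The fit over clusters 1 to 5 without C57BL6 left out sums of fewer than 3 cells, so PdgfrbGFP alone gave cluster 5. There the log2 difference of C3 was 0.18, and those of Cxcl1, Hmox1 and Ackr3 were 0.22, 0.0096 and 0.20. On the PdgfrbGFP plate itself C3 stood at 333 CPM in cluster 2 and 972.5 CPM in cluster 5.

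Adventitial and progenitor genes were lower in cluster 2 on 3 of 3 plates in 8 of 19 and higher in 4. Over all genes the shares were 14.6% and 13.4%. Ackr3, a scavenging receptor for Cxcl12, had 404, 435 and 400 CPM against 749, 580 and 831 CPM. Ly6c1 had 10.6, 37.4 and 15.3 CPM against 57.4, 77.6 and 111.4 CPM, with no overlap, and its close relative Ly6a was 1.16- to 1.76-fold lower, although reads may be split between such similar genes. Without PdgfrbGFP, in a fit over clusters 1 to 5, the log2 difference of Ly6a was 0.19. Pi16, a marker of the adventitial state, pointed the other way at 1.04- to 1.28-fold higher. DESeq2 called 5 lower and 0 higher.

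The remaining leading genes lower in cluster 2 were Srpx, Cpe, Pdlim3, Igfbp3 and Olfml2b. Srpx, a secreted sushi-domain protein gene, had 167.7, 161.3 and 106.3 CPM against 616, 499 and 367 CPM, and Olfml2b 74.6, 89.8 and 32.8 CPM against 290.6, 198.8 and 160.7 CPM. Cpe, a peptide-processing carboxypeptidase, had 32.7, 2.01 and 31.3 CPM against 202.7, 107.4 and 94.6 CPM, and Pdlim3, an actin-associated protein gene, 67.4, 57.9 and 2.81 CPM against 201.7, 300 and 77.6 CPM. Their folds ran from 2.96 to 36.1 and from 2.96 to 20.7 because the lowest cluster 2 values differed so much between plates. In cells matched on depth Igfbp3 had no common direction on the plates.

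Secreted growth factor regulators were divided. Igfbp3 and Igfbp4, binding proteins of insulin-like growth factors, were lower in cluster 2 by 2.39- to 2.71-fold and 1.26- to 1.60-fold, and Igf1 itself had 298, 340 and 166.8 CPM against 849, 811 and 262.02 CPM. Igfbp5 had 154.4 and 24.99 CPM in cluster 2 on plates heart_203s and heart_320s against 4.50 and 0.694 CPM, but 1.38 CPM against 4.29 CPM on plate heart_316s, the plate directions of the pericyte markers. DESeq2 called Igfbp5 higher and Igfbp3, Igfbp4 and Igf1 lower, and of 12 genes tested 3 were higher and 3 lower on 3 of 3 plates.

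The secreted Wnt antagonists Frzb and Sfrp1 pointed in opposite directions, Frzb at 244.2, 208.99 and 620 CPM against 87.9, 158.4 and 224.7 CPM and Sfrp1 at 146.8, 263.8 and 159.8 CPM against 338, 620 and 320 CPM. In the BMP pathway the ligand gene Bmp4 was 1.48- to 1.85-fold higher in cluster 2, the decoy receptor Bambi 3.07- to 5.43-fold lower and the target Id3 1.44- to 1.57-fold lower. Heyl, a Notch target, was 1.78- to 2.18-fold higher. Angptl2, an angiopoietin-like protein, was 1.53- to 2.04-fold higher, and Apoe, a lipid carrier, had 1811, 1581 and 1309 CPM against 2935, 2861 and 2110 CPM. Of 19 BMP genes 6 were higher and 6 lower on 3 of 3 plates, and of 7 Wnt antagonists 1 and 3. Among 26 growth factors 1 was higher and 12 lower, with a median log2 difference of -0.99, and DESeq2 called 1 higher and 3 lower. Among 26 lipid transport and storage genes 2 were higher and 5 lower, and among 32 transcription factors of cardiac fibroblasts 5 and 11.

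Interferon response genes were higher in cluster 2 on 3 of 3 plates in 11 of 28 and lower in 0, beside 13.4% and 14.6% of all genes. The median log2 difference of the list was 0.56. Their folds were uneven. Gbp2 had 210.7, 280.01 and 94.1 CPM against 129.1, 67.1 and 82.9 CPM, but its log2 difference was -0.040 in the fit over clusters 1 to 5 without C57BL6. Ifit1 had 91.3, 52.9 and 25.4 CPM against 31.1, 49.2 and 0.438 CPM. DESeq2 called only Ifit1 in the list (adjusted p 0.0303), with 0 lower. With cells matched on depth 9 were higher on 3 of 3 plates and 0 lower, and with thinned cells 10 and 1.

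Of 75 cytosolic ribosomal protein genes 69 were lower in cluster 2 on 3 of 3 plates and 0 higher, with median log2 differences of -0.23, -0.28 and -0.37 on plates heart_203s, heart_316s and heart_320s. Rps9 had 835, 774 and 998 CPM against 1051, 994 and 1199 CPM. DESeq2 called 0 of the list in either direction. In cells matched on depth 65 of 75 were lower on 3 of 3 plates and 0 higher. Of 93 nuclear oxidative phosphorylation genes 22 were lower and 6 higher on 3 of 3 plates (21 and 10 in cells matched on depth, 39 and 8 in thinned cells), with 0 DESeq2 calls. Of 14 mitochondrially encoded genes 8 were lower on 3 of 3 plates, and 1 was in cells matched on depth. Many copies of ribosomal protein genes exist in the genome, and reads may be split with them.

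Heat shock genes had 6 of 15 lower on 3 of 3 plates and 0 higher, beside 14.6% and 13.4% of all genes. Dnajb1 and Bag3, cochaperones, were lower in cluster 2 by 1.19- to 2.13-fold and 1.25- to 1.87-fold and were called by DESeq2, and Hspa8 was 1.21- to 1.47-fold lower. Among glucocorticoid response genes 7 of 17 were lower and 3 higher, with Errfi1, a feedback inhibitor of EGF receptor signalling, 1.53- to 2.69-fold lower in cluster 2. In cells matched on depth 17 of 26 immediate early genes were lower on 3 of 3 plates and 0 higher, 8 of 21 basement membrane genes were higher and 5 lower (9 and 3 in thinned cells), and 4 of 10 of the collagen VI, VIII and fibril-associated collagens were higher and 1 lower. The background in cells matched on depth was 2127 genes higher and 2005 lower of 15153, and in thinned cells 2023 and 2063.

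**Figure D4:**
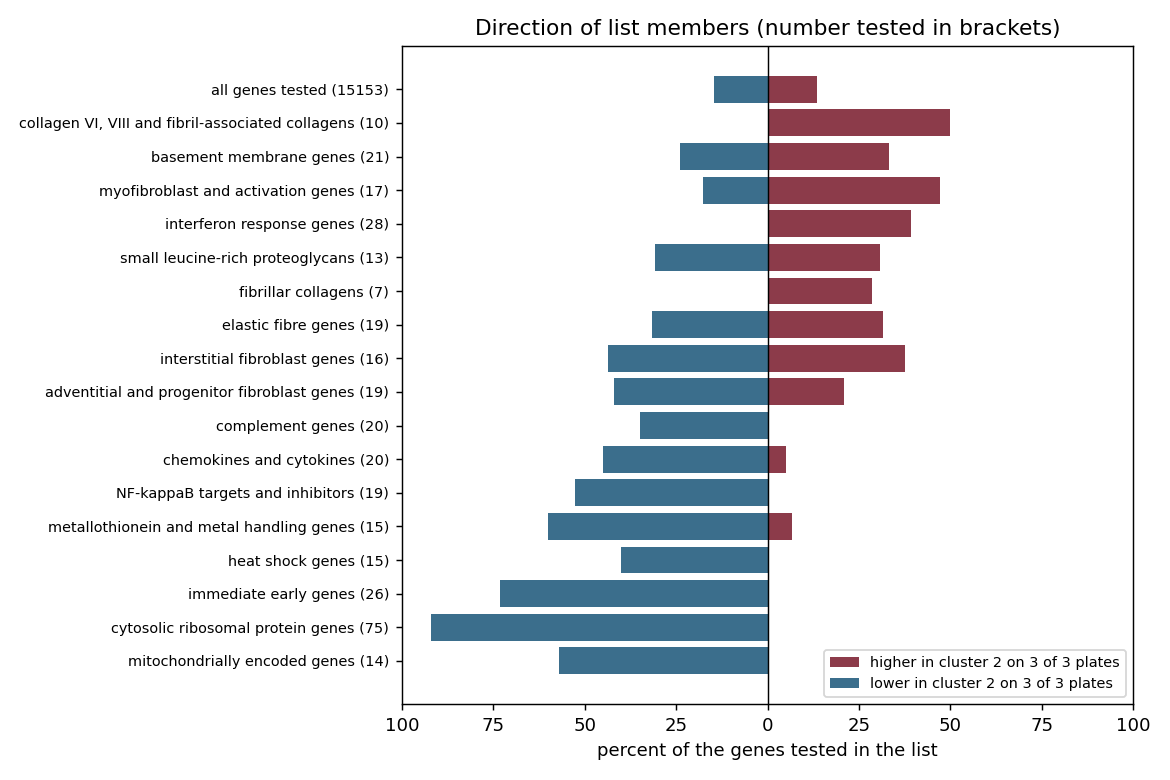
Percent of the tested genes of each list (y axis, number tested in brackets) that were higher in cluster 2 (right of 0) or lower in cluster 2 (left of 0) on 3 of 3 plates. All genes stand at 13.4% and 14.6%, immediate early and ribosomal protein genes lie to the left only, and interferon response genes and collagen VI, VIII and fibril-associated collagens to the right only.

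Of the PDGF receptor genes, Pdgfra had 566, 598 and 482 CPM in cluster 2 and 515, 476 and 391 CPM in cluster 5, 1.10- to 1.25-fold, and Pdgfrb had 235.6, 107.6 and 409 CPM against 158.6, 130.2 and 310 CPM, again in the plate directions of the pericyte markers. Tcf21, the transcription factor of the cardiac fibroblast lineage, had 379, 334 and 454 CPM against 437, 396 and 471 CPM, a log2 difference of -0.14 ± 0.13. Over clusters 1 to 5 the log2 difference of Tcf21 was 0.17 with 4 strains, 0.54 without C57BL6 and 0.093 without PdgfrbGFP. The difference of Pdgfra was 0.26 ± 0.12.

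Clusters 3 and 4 of C57BL6 did not simply fill the space between clusters 2 and 5. For the 12 leading genes higher in cluster 2, the cluster 3 level lay between those of clusters 2 and 5 in 6 on plate heart_203s and 6 on plate heart_316s, and the cluster 4 level in 7 and 9. Of the 12 lower in cluster 2 these numbers were 5 and 3 for cluster 3 and 5 and 7 for cluster 4. Nr4a1 had 2142 and 2423 CPM in cluster 3 and 1410 and 970.5 CPM in cluster 4 on the 2 plates, and Gadd45g had 501 and 564 CPM and 371 and 266.9 CPM. Inmt was lower in both, at 49.5 and 84.4 CPM and at 254.3 and 122.7 CPM, so high Inmt was a feature of cluster 5 among the 4 clusters on these plates. Smoc2, at 378 and 430 CPM in cluster 3 and 939 and 1002 CPM in cluster 4, was higher in cluster 2 and in cluster 5 than in either. C3 had 418 and 599 CPM in cluster 3 and 760 and 546 CPM in cluster 4, which placed cluster 5 above the other 3 on both plates.

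**Figure D5:**
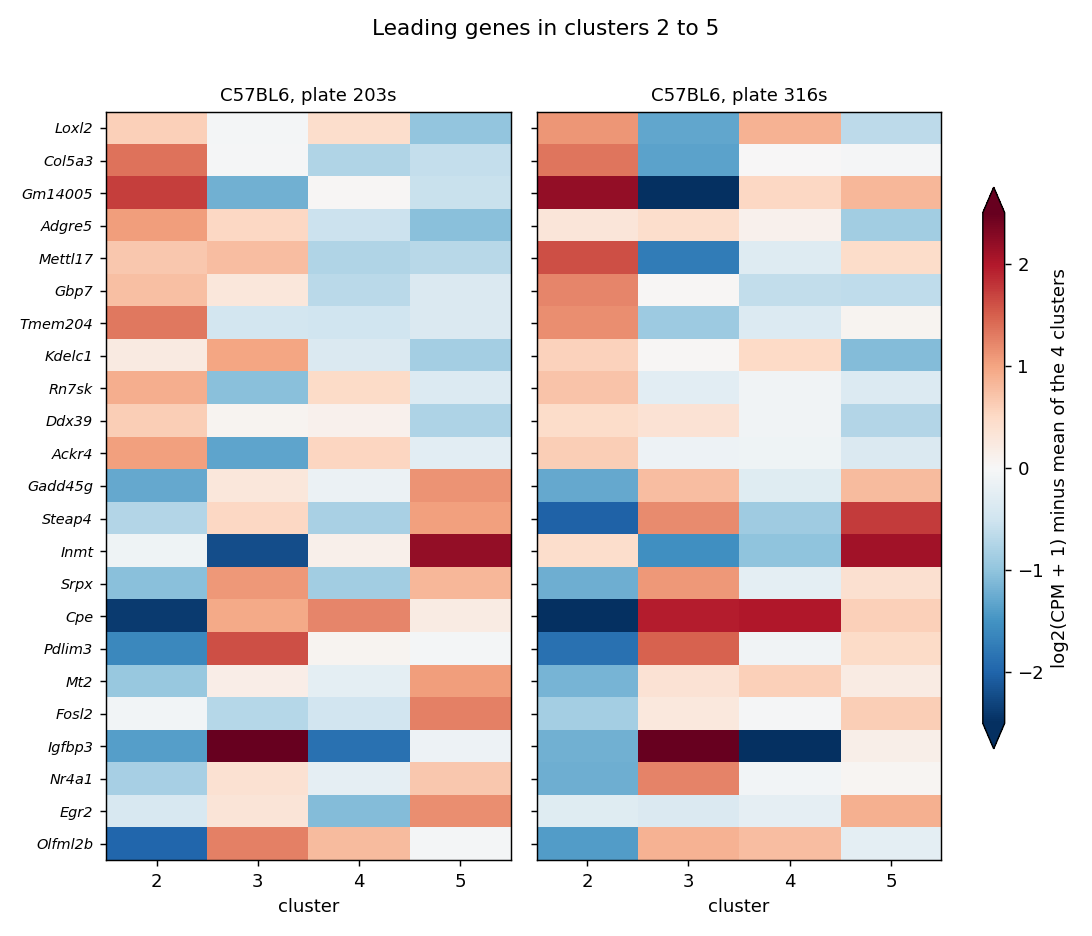
log2(CPM + 1) of the leading genes in clusters 2 to 5 of C57BL6 on plates heart_203s and heart_316s, each minus the mean of the 4 clusters (colour, which saturates at the ends of its scale). Gadd45g, Steap4, Inmt, Fosl2 and Egr2 are highest in cluster 5 on both plates, and Srpx, Pdlim3, Igfbp3 and Olfml2b in cluster 3.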

How the data were processed

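Single heart cells were sequenced with Smart-seq2. According to the methods, trimming used Trim Galore, mapping TopHat2 against GRCm38 and counting featureCounts, and the authors state that doublets were removed with samtools. The authors deposited counts per gene and cell, and whether duplicate reads had been removed is not given in the sources used here. Annotation release and strand setting are not given in the sources used here. They removed poor, endothelial and immune cells and cells with neither Pdgfra nor Pdgfrb, and clustered the rest with pagoda2.

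Counts of 46517 genes were used here, without 92 spike-ins (1.82% of counts), and 46005 genes were matched to GENCODE M21 by identifier for coordinates. Counts were summed per strain and cluster (4 sums, 1 residual degree of freedom) and tested with edgeR 4.0.16 (R 4.3.3, quasi-likelihood, TMM, filterByExpr with a minimum count of 10, strain as block), with Benjamini-Hochberg adjustment. DESeq2 1.42.0 was an alternative. Values with ± are log2 differences and SE, the absolute difference divided by the square root of F. CPM values are sums per plate and cluster. The deviations of the 2 clusters of a plate from their cluster means correlated at r of 0.178, 0.128 and 0.133 on plates heart_203s, heart_316s and heart_320s, which pairs clusters by plate.

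Leading genes were the 12 per direction with the largest smallest absolute within-plate log2 fold change (1 CPM added), among tested genes of 1 direction on 3 of 3 plates that were detected in at least 30% of the higher cluster's cells on every plate. Each list described contributed up to 6 members with the highest mean CPM or the smallest adjusted p, and a gene could count for several lists. Of the leading genes 1, which is counted with the 12, is not reported here by name. The members and lists were chosen with earlier results of these data known. No cell of the 3 plates had fewer than 50000 gene counts, so thinning left out none. Reads carried no molecular identifiers, so counts are not counts of molecules.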

Additional observations from a re-analysis of the deposited data

How the results depend on the processing

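The edgeR test called 0 genes under each alternative planned for it, plates, strains, filter, scaling and thinning included, with 303 to 1087 genes at an unadjusted p under 0.05. Without the replicate block it called 0 (567 at an unadjusted p under 0.05), and with plates as pairs 0 (815). DESeq2 called 2.28% of genes, and 7.40% in cells matched on depth, where edgeR called 0 (586 at an unadjusted p under 0.05). Over detected genes, a filter chosen after the data were seen like the matching, edgeR called 2.98%, with plates as replicates 1.60%, with matched cells 0.446%, and without 1 plate 0.211% to 2.75%, and DESeq2 called 4.55%. Causes were not tested. The share of genes 2-fold apart on 3 of 3 plates, 0.924% higher and 1.53% lower, was 0.396% and 0.660% with 5 CPM added, 0.251% and 0.700% at 3-fold, and 1.33% and 1.12% in cells matched on depth. On 2 of 2 plates, a weaker demand by construction, it was 3.23% to 4.05% and 3.71% to 5.67%. With clusters 1 to 5 as denominator, cluster 2 held 22.3%, 23.1% and 20.8% on plates heart_203s, heart_316s and heart_320s, 31.7% in Acta2GFP and 30.8% in Cspg4dsRED, with overlapping Wilson intervals. Means over cells kept the direction of the plate average of the 5 depth and quality measures, but the mean mitochondrial share on plate heart_203s was 1.58% in cluster 2 and 1.57% in cluster 5 (exact two-sided sign-flip permutation p = 0.5).

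Of 2240 log2 differences of the named genes under the alternatives, 25 changed sign. Without C57BL6, the fit over clusters 1 to 5 left out sums of fewer than 3 cells, so PdgfrbGFP alone gave cluster 5. In that fit C3 stood at 0.18, Cxcl1 at 0.22, Hmox1 at 0.0096, Ackr3 at 0.20, Gbp2 at -0.040, Tcf21 at 0.54 and Nid1 at 0.29. Without PdgfrbGFP, Ly6a stood at 0.19, Tcf21 at 0.093, Nid1 at 0.22 and Postn at 3.03. Over all fits without a plate or strain the ranges were -1.58 to 0.18 for C3, -0.80 to 0.22 for Cxcl1, -1.60 to 0.0096 for Hmox1, -1.02 to 0.20 for Ackr3, -0.70 to 0.19 for Ly6a, -0.040 to 1.09 for Gbp2 (1.11 over detected genes), -0.15 to 0.54 for Tcf21, -0.12 to 0.29 for Nid1 and -0.80 to 3.03 for Postn. With all 4 strains Tcf21 stood at 0.17, Nid1 at 0.16 and Postn at 0.78, and with clusters 2 to 5 Postn at 0.62. With plates as replicates Postn stood at 1.76, and at 1.77 over detected genes. In matched cells Postn stood at 1.59, 1.58 with DESeq2 and 1.61 over detected genes, and Col1a1 at -0.013 and, with DESeq2, -0.024. Nid1 stood at 0.0016 without plate heart_203s, at 0.017 there over detected genes and at 0.053 over detected genes with thinned cells. The causes were not tested.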
